A study of Mus musculus with 5 samples.

Results

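The genes described here are 9 chaperones and folding factors of the endoplasmic reticulum, Hspa5, Hsp90b1, Pdia4, Pdia6, Sdf2l1, Dnajb11, Manf, Creld2 and Calr, together with Xbp1, a transcription factor of the unfolded protein response. They are 10 of the 33894 named gene entries in the files, and all 10 were found by symbol and passed the filter on low counts. They were chosen by a measured value, the high level of Hspa5 in one library, WT replicate 2. The level of that library, and any contrast that contains it, is therefore given as a description, and tests of these genes rest on the other 4 libraries.

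RNA was sequenced from mouse haematopoietic stem cells, sorted at 8 weeks of age from the LSK compartment of early blood progenitors as cells lacking CD34 and Flt3. There were 3 Lrp5/6 dKO libraries, carrying Vav-cre with both Lrp5 fl/fl and Lrp6 fl/fl, and 2 WT libraries. Lrp5 and Lrp6 are co-receptors for Wnt ligands, and the Vav promoter drives Cre across blood cells. The labels name no Cre in WT, so effects of the transgene and of the floxed genes cannot be told apart. Separate mice are not stated either, so a p-value here covers the spread between libraries, which may be technical.

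Proteins that enter the secretory pathway fold in the endoplasmic reticulum, where Hspa5 (also called BiP) and its co-chaperones hold unfolded chains and disulfide isomerases form their bonds. When unfolded proteins build up, the sensors Ern1 (IRE1), Atf6 and Eif2ak3 (PERK) start the unfolded protein response. Ern1 removes a short intron from Xbp1 mRNA so that the active factor can be made, and Xbp1 and Atf6 raise transcription of chaperone genes through promoter elements. In blood, cells that make much secreted or granule protein, such as plasma cells and granulocyte progenitors, carry a large folding machinery, while stem cells make little protein. Counts over a whole gene do not tell spliced from unspliced Xbp1.

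Promoter windows of these genes are shown first because the unfolded protein response acts through known letters in them. The ER stress response element is CCAAT followed by 9 bases and CCACG, and its second form is ATTGG followed by 1 base and CCACG. Windows of 300 bases, 250 before and 50 after the annotated start, were taken from RefSeq on GRCm38.p6 for 9 of the 10 genes, and Manf had no entry. Both strands were searched. The first form was found in 5 of the 9 windows, those of Hspa5, Hsp90b1, Calr, Pdia6 and Creld2, against 0.119% of all 32851 windows. Dnajb11 held the second form, found in 0.0365% of all windows. Both forms contain the shorter core CCACG, which was in 8 of the 9 windows and in 32.8% of all, and the letters TGACGTGG, also bound by Xbp1, were in 0 of the 9 and in 0.676% of all. The elements were already known from promoters of chaperone genes, so these shares are a description and not a test of enrichment. A match describes letters only. The matched stretches are printed in the direction of the gene with 15 bases on each side and the fixed letters of the element in capitals.
Hspa5, chr2:34772010-34772058, plus strand: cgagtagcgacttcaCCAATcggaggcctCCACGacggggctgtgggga
Hsp90b1, distal, chr10:86705623-86705671, minus strand: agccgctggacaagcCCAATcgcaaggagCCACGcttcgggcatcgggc
Hsp90b1, proximal, chr10:86705518-86705566, minus strand: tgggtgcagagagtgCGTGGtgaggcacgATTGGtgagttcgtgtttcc
Calr, chr8:84847060-84847108, minus strand: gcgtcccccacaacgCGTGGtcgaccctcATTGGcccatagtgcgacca
Pdia6, chr12:17266476-17266524, plus strand: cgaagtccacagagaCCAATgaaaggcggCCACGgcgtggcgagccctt
Creld2, chr15:88819505-88819553, plus strand: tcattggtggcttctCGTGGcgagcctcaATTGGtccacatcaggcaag
Dnajb11, chr16:22857837-22857877, plus strand: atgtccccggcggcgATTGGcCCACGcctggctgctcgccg

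In Hspa5, Pdia6 and the distal copy of Hsp90b1 the element ran with the gene, and in Calr, Creld2 and the proximal copy of Hsp90b1 it ran against it, so that its letters read CGTGG and ATTGG. The element of Hspa5 began 65 bases before the start, the nearest of the first form, and the distal copy of Hsp90b1 began 212 bases before, the farthest. The second form in Dnajb11 lay inside the transcribed part, with its first base 8 bases into the gene. The whole Hspa5 window is given because this gene was the basis of the choice, with the element in capitals as above.
Hspa5, chr2:34771840-34772139, plus strand: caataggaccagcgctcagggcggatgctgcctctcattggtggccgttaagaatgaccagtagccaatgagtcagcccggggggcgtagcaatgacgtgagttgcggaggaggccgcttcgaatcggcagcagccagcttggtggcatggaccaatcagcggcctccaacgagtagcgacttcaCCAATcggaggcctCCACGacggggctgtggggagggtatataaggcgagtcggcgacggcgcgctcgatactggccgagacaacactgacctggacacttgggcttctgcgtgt

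**Figure D1:**
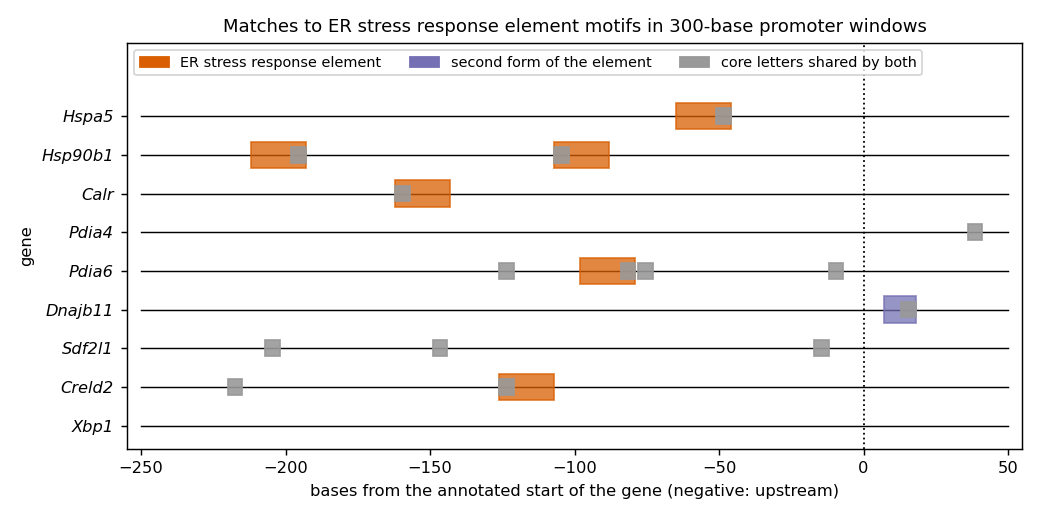
Position of motif matches in the promoter windows of 9 genes, in bases from the annotated start (negative is upstream); orange marks the ER stress response element, purple its second form and grey the core letters. 5 genes carry the first form upstream of the start, Dnajb11 carries the second form just inside the gene, and Pdia4, Sdf2l1 and Xbp1 carry neither form.

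Facts of the whole series bear on these values. Library totals ranged from 16028512 to 28027458 counts, the lowest being that of dKO replicate 2, which also stood apart: across genes its highest correlation with any other library in log2 CPM (counts scaled to a common library size) was 0.851, against 0.883 or more among the other 4. Lrp6 had 790, 260 and 767 counts in dKO replicates 1, 2 and 3 and 660 and 232 counts in WT replicates 1 and 2, and Lrp5 had 37, 2 and 71 counts in the same dKO libraries and 7 and 32 in WT. By mean CPM neither was lower in the libraries labelled dKO: 24.4 against 17.2 in WT for Lrp6, and 1.37 against 0.774 for Lrp5. Single libraries varied, and Lrp5 was lowest in dKO replicate 2, at 0.121 CPM against 0.266 and 1.28 CPM in WT replicates 1 and 2. Counts over a whole gene cannot show a deleted exon, so the directions given rest on the labels. The 14 stem cell markers listed, Kit, Mecom and Hlf among them, were detected in every library. Their sum was 2670.3, 2849.5 and 2667 CPM in dKO replicates 1, 2 and 3, against 2001 CPM in WT replicate 1 and 1320.3 CPM in WT replicate 2.

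The chaperones and Xbp1 stood highest in WT replicate 2, all 10 of 10. Summed over the genes, they reached 5737, 4843 and 4055 CPM in dKO replicates 1, 2 and 3, against 5240.4 CPM in WT replicate 1 and 13356 CPM in WT replicate 2. As a share of all counts they took 0.617%, 0.500% and 0.407% in these dKO libraries, 0.526% in WT replicate 1 and 1.19% in WT replicate 2. These are bulk samples, in which fewer cells of a type and less RNA per cell cannot be told apart. The CPM values are counts scaled to library size with TMM, a factor that centres most genes between libraries.

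Hspa5, the Hsp70 chaperone of the compartment, had 2124, 1759.6 and 1395 CPM in dKO replicates 1, 2 and 3, against 1871 CPM in WT replicate 1 and 4639 CPM in WT replicate 2. Its mean was 1759.7 ± 364 CPM over the 3 dKO libraries and 3255 ± 1958 CPM over the 2 WT libraries (SD, n = 3 and n = 2). WT replicate 1 lay within the range of the libraries labelled dKO, and WT replicate 2 lay 2.48-fold above WT replicate 1. Hsp90b1 (Grp94), the Hsp90 chaperone that matures integrins and Toll-like receptors, had 549, 386 and 329 CPM in the dKO libraries, against 418 and 1068 CPM in WT replicates 1 and 2. A gene in the opposite orientation, 1810014B01Rik, shares 273 identical bases with an Hsp90b1 transcript, and the standard form of the library method does not mark strand. That gene had 121 to 563 counts a library where Hsp90b1 had 6391 to 26654.

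Calr, calreticulin, a lectin chaperone that binds sugars on new glycoproteins and calcium, had 1181, 1177 and 809 CPM in dKO replicates 1, 2 and 3, against 948 and 2927 CPM in WT replicates 1 and 2. Like Hspa5 and Hsp90b1, it placed WT replicate 1 inside the range of the libraries labelled dKO. Its excess in WT replicate 2 over WT replicate 1 was 3.09-fold, second among the 10 genes to that of Sdf2l1.

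The disulfide isomerases placed WT replicate 1 above the dKO libraries in CPM. Pdia4 (ERp72) had 257, 226 and 221 CPM in dKO replicates 1, 2 and 3, against 288 and 630.5 CPM in WT replicates 1 and 2. Pdia6 (P5) had 719, 568 and 586 CPM in the dKO libraries, against 729 and 1629.8 CPM in WT. In CPM every library labelled dKO was below both WT libraries for both genes, by a wide margin only against WT replicate 2. In TPM this order held for Pdia4 but not for Pdia6.

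Dnajb11 (ERdj3) is a co-chaperone that hands unfolded chains to Hspa5, and Sdf2l1 is its partner in a chaperone complex. Dnajb11 had 164, 140.4 and 147 CPM in dKO replicates 1, 2 and 3, against 200.4 and 401 CPM in WT replicates 1 and 2. Sdf2l1 had 192, 135 and 141 CPM in the dKO libraries, against 205 and 736 CPM in WT. Sdf2l1 showed the largest ratio between the WT libraries of the 10 genes, 3.59-fold, and Dnajb11 the smallest, 2.0015-fold.

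Manf is a small protein of the compartment that responds to stress there and is also secreted, and Creld2 is a stress-induced protein with a disulfide isomerase-like part. Manf had 179, 166 and 135 CPM in dKO replicates 1, 2 and 3, against 224 and 552 CPM in WT replicates 1 and 2. Creld2 had 124, 64.2 and 73.9 CPM in the dKO libraries, against 127 and 297 CPM in WT. In CPM every library labelled dKO lay below both WT libraries in both genes, a placing seen in 15.6% of all tested genes. In TPM it held for neither. Creld2 had the widest spread among the dKO libraries, 1.93-fold between the highest and the lowest.

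Xbp1, the transcription factor of the group, had 249, 221 and 219 CPM in dKO replicates 1, 2 and 3, against 229.7 and 475 CPM in WT replicates 1 and 2. It varied least among the libraries labelled dKO, 1.14-fold, and WT replicate 1 lay between them. Its promoter window held neither form of the element nor the core. The median spread between the highest and lowest dKO library was 1.38-fold over the 10 genes, beside 1.415-fold over the 4380 tested genes averaging 50 CPM or more, and dKO replicate 1 was the highest of the 3 for all 10.

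**Figure D2:**
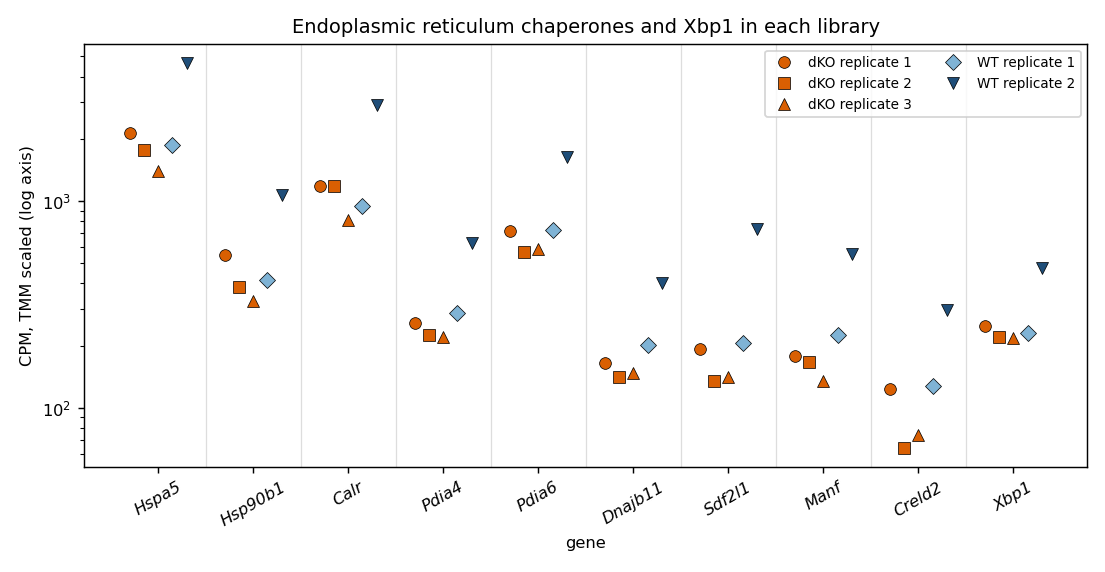
CPM of the 10 genes on a log axis, with the 3 dKO libraries (orange) left of the 2 WT libraries (blue) for each gene; each point is 1 library. WT replicate 2 (dark triangles) is above all other libraries for every gene, and WT replicate 1 lies within or above the dKO points.

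Levels between genes were compared in the deposited TPM, which divides by transcript length. Averaged over the 5 libraries, the order was Hspa5 (1260.1 TPM), Calr (1097 TPM), Pdia6 (633 TPM), Hsp90b1 (470 TPM), Sdf2l1 (419 TPM), Pdia4 (226 TPM), Manf (214 TPM), Creld2 (168 TPM), Dnajb11 (163 TPM) and Xbp1 (149 TPM). Hspa5 was the first of the 10 in every library but dKO replicate 2, where Calr had 1031 TPM and Hspa5 780 TPM. Pdia6 was the third in all 5 libraries. Hsp90b1 and Sdf2l1 changed places in WT replicate 2, Pdia4 and Manf in dKO replicate 1, and the order of Creld2, Dnajb11 and Xbp1 varied between libraries, so neighbours in the lower part of the order were not separated. Among all genes of a library ranked by TPM, Hspa5 was at place 76, 167 and 197 in dKO replicates 1, 2 and 3, at place 119 in WT replicate 1 and at place 47 in WT replicate 2.

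The scale mattered for small differences. In TPM, WT replicate 2 was again the highest library for all 10 genes, 1.72-fold to 3.10-fold above WT replicate 1. In CPM 6 of the 10 genes had every library labelled dKO below both WT libraries, and in TPM 2 did, Pdia4 and Dnajb11. The share of all genes placed this way in TPM was not computed. Manf showed the gap most: dKO replicate 1 had 228 TPM against 181 TPM in WT replicate 1, but 179 CPM against 224 CPM. In CPM every dKO library lay below both WT libraries in 15.6% of all tested genes, and because WT replicate 2 is in that count and was used for the choice, nothing is read from it.

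The comparison of libraries labelled dKO with WT asks how loss of the Wnt co-receptors changes stem cells, and the 10 genes depended on which WT library was used. With all 5 libraries the log2 fold change was below 0 for 10 of 10 genes, from -1.59 for Sdf2l1 to -0.62 for Xbp1, with a median of -0.94, beside 0.04 over all 13696 tested genes. With edgeR (quasi-likelihood test, adjusted p under 0.05) 0 of the 10 were called, as were 0% of all genes in either direction; at an unadjusted p under 0.05, 7 of the 10 were lower, against 5.19% of all genes lower and 4.94% higher. DESeq2 called Sdf2l1 and Manf lower, among 91 genes lower and 154 higher. These values contain the library used for the choice and are a description only.

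Without WT replicate 2, the 3 dKO libraries were set against WT replicate 1, which was assumed to vary like them. The log2 fold changes then lay between -0.55 and 0.15, with a median of -0.26, beside 0.07 over all 14841 genes tested there. None of the 10 genes passed edgeR's test (adjusted p = 0.9996 for each, over all genes; 0 of 10 with an unadjusted p under 0.05, against 0.930% of all genes lower and 1.96% higher). Over all genes 0% were called higher and 0.00674% lower, which is 1 gene, and DESeq2 called 0 of the 10 among 87 higher and 8 lower. The interval of each fold change included 0, and the widest, that of Creld2, ran from -1.54 to 0.44, so the values do not show that the groups were alike.

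Hspa5, Hsp90b1, Calr and Xbp1 had values near 0 in this comparison. The log2 fold change was -0.09 for Hspa5 (95% interval -0.73 to 0.54), 0.01 for Hsp90b1 (-0.74 to 0.76), 0.15 for Calr (-0.50 to 0.80) and -0.004 for Xbp1 (-0.57 to 0.56). The signs of Hspa5, Hsp90b1 and Xbp1 turned when single dKO libraries were left out: Hspa5 had 0.06 without dKO replicate 3, Hsp90b1 -0.23 without dKO replicate 1, and Xbp1 0.03 and 0.04 without dKO replicates 2 and 3. In these 4 genes WT replicate 1 lay inside the range of the dKO libraries.

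The other 6 genes were lower in each library labelled dKO than in WT replicate 1, with values that did not pass the test. The log2 fold change was -0.55 for Creld2 (95% interval -1.54 to 0.44), -0.49 for Manf (-1.12 to 0.14) and -0.42 for Dnajb11 (-1.02 to 0.18). For Sdf2l1 it was -0.40 (-1.10 to 0.30), for Pdia4 -0.30 (-0.85 to 0.25) and for Pdia6 -0.23 (-0.77 to 0.31). In CPM all 3 dKO libraries lay below WT replicate 1 in 25.7% of all tested genes and in 36.2% of those averaging 50 CPM or more. The 6 of 10 genes placed this way are a count to be read beside that background. In TPM it was 2 of 10, for which no share over all genes was computed.

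**Figure D3:**
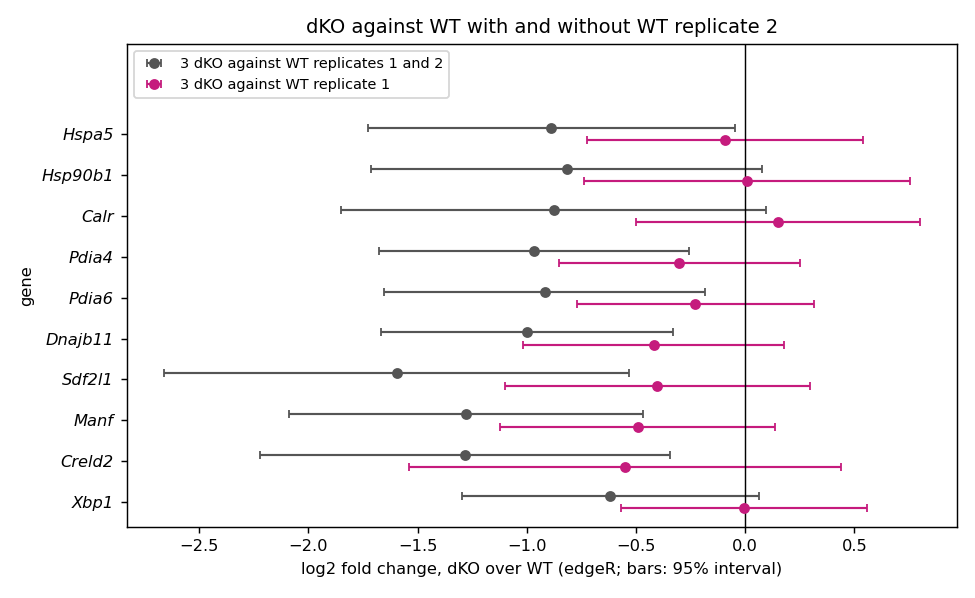
Log2 fold change of the libraries labelled dKO over WT for each gene, with 95% intervals from edgeR, against both WT libraries (grey) and against WT replicate 1 alone (pink). Grey points lie between -1.59 and -0.62, and pink points between -0.55 and 0.15 with every interval crossing 0.

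Granulocyte progenitor transcripts moved with the chaperones in WT replicate 2. The 15 markers listed, led by the granule enzymes Mpo and Elane, summed to 13336, 16703 and 12125 CPM in dKO replicates 1, 2 and 3, against 7291 CPM in WT replicate 1 and 43815 CPM in WT replicate 2. In WT replicate 2, 13 of the 15 were at least 2-fold above WT replicate 1, with a median of 3.83-fold and up to 8.75-fold, and the mature granule gene Ltf had no count in dKO replicates 1 and 2. Relative to WT replicate 1, the median log2 CPM of the markers was 0.63, 0.27 and 0.26 in dKO replicates 1, 2 and 3, and that of the 10 chaperone genes was -0.03, -0.35 and -0.40. Among the dKO libraries both medians were highest in replicate 1, on opposite sides of WT replicate 1. The marker medians of dKO replicates 2 and 3 were nearly equal. By sum the markers were highest in dKO replicate 2 instead, and the 10 chaperone genes in dKO replicate 1. All 3 dKO libraries held a higher marker sum than WT replicate 1. Without WT replicate 2 the median of the markers was 0.32 in log2 fold change, with 10 of the 15 higher and 5 lower. Of the 15, 6 were higher there at an unadjusted p under 0.05, against 1.96% of all genes, and 0 were called by edgeR, beside a median of -0.26 for the 10 chaperone genes. The sort was for Sca1-positive cells without CD34, a gate meant to leave out granulocyte progenitors. Whether it did so in each library was not tested, nor was the part of these cells in the chaperone values.

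Markers of plasma cells, blood cells rich in Xbp1 that a lineage-negative sort is meant to leave out, had another order over the libraries. The 8 plasma cell and B lineage markers summed to 414, 419 and 1297 CPM in dKO replicates 1, 2 and 3. The sum was 326 CPM in WT replicate 1 and 115 CPM in WT replicate 2. The J chain gene Igj had 281, 268 and 1082 CPM in the dKO libraries and 171 and 7.37 CPM in WT replicates 1 and 2. It made up most of the sum in every library but WT replicate 2, where Cd79b did, with 90.7 CPM. The plasma cell factor Prdm1 had 71, 0 and 0 counts in dKO replicates 1, 2 and 3, against 78 counts in WT replicate 1 and 0 in WT replicate 2. The surface receptor Tnfrsf17 had at most 4 counts in any library. The source of these transcripts was not tested, nor was any part of such cells in the chaperone values.

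The gap between the WT libraries was unusual among abundant genes but not confined to the 10. Of the tested genes averaging 50 CPM or more, 3.01% were 2-fold or more above WT replicate 1 in WT replicate 2, where all 10 genes were, and the median ratio over those genes was 1.06. This places the genes by the library they were chosen on and carries no test.

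**Figure D4:**
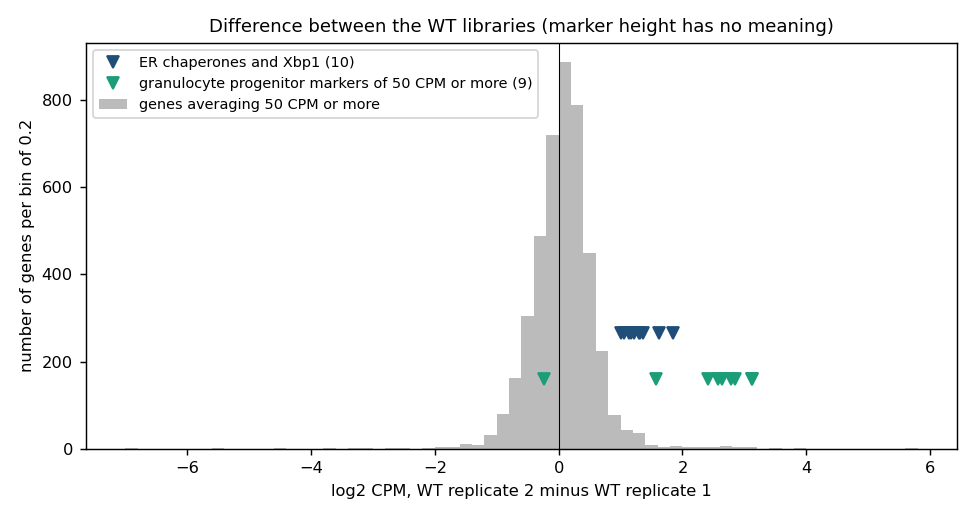
Histogram of the difference in log2 CPM between WT replicate 2 and WT replicate 1 for 4380 tested genes averaging 50 CPM or more, with the 10 genes (blue) and the granulocyte progenitor markers at that level (green) marked. The 10 genes lie between 1.0008 and 1.84, right of nearly all genes, and most granulocyte markers lie farther right.

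Genes whose profile over the 5 libraries was most like the median profile of the 10 were found by the root mean square difference of centred log2 CPM, among 4370 genes averaging 50 CPM or more. The nearest was Dnajc3 (p58IPK), a co-chaperone of Hspa5, at 0.09, followed by Cars, the cysteinyl-tRNA synthetase, at 0.11, Mphosph10, a nucleolar protein of ribosome assembly, at 0.11, Lrrc59, an endoplasmic reticulum membrane protein, at 0.13, and Syngr2, a vesicle membrane protein, at 0.14. The 10 genes themselves lay between 0.08 and 0.32 from that profile. Dnajc3 had 221, 197 and 174 CPM in dKO replicates 1, 2 and 3, against 225 and 481 CPM in WT replicates 1 and 2. The profile contains the library on which the genes were chosen, so likeness to it is a description only.

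The other folding factors of the compartment gave mixed values. Of the 33 tested, 8 were 2-fold or more above WT replicate 1 in WT replicate 2, including Cdnf with 0 counts in WT replicate 1. The largest measured ratios were 8.74-fold for Nucb2 and 5.36-fold for Fkbp11, above the 3.59-fold of Sdf2l1. Both were named after their values were seen, and the ratios contain the library used for the choice. Of 33 tested genes, 26 had a lower and 7 a higher value in the libraries labelled dKO, with a median log2 fold change of -0.33 and 0 called by edgeR; without WT replicate 2 the split was 16 lower and 17 higher with a median of 0.03. The 4 with the smallest p were the isomerase Pdia3 (-0.93), the Hspa5 partner Dnajb9 (0.67), the lectin chaperone Canx (-0.56) and the prolyl isomerase Fkbp2 (-0.80). Dnajb9 (ERdj4), a known target of spliced Xbp1, went against the 10 genes, with 191, 173 and 236 CPM in dKO replicates 1, 2 and 3, against 117 and 134 CPM in WT replicates 1 and 2. Every dKO library was above both WT libraries, in TPM as in CPM, a placing seen in 13.7% of all tested genes in CPM, but the difference did not pass edgeR's test (adjusted p = 0.436 with both WT libraries and 0.9996 without WT replicate 2).

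Close relatives of 3 of the genes differed from them in profile. Sdf2, the paralogue of Sdf2l1, had 89.8, 35.5 and 101 CPM in dKO replicates 1, 2 and 3, against 97.4 and 74.4 CPM in WT replicates 1 and 2. Creld1 had 12.2, 5.26 and 8.26 CPM in the dKO libraries, against 9.65 and 6.65 CPM in WT. Cdnf, the relative of Manf, was barely detected: 23, 0 and 54 counts in the dKO libraries, and 0 and 21 counts in WT. For Sdf2 and Creld1 WT replicate 2 lay below WT replicate 1, the reverse of the order in Sdf2l1 and Creld2. Hsp90aa1, a cytosolic relative of Hsp90b1, had 1464, 1121 and 1125 CPM in the dKO libraries, against 1436 and 2291 CPM in WT, a smaller excess in WT replicate 2. Relatives of the 10 did not all differ from them. Beside Pdia4 (2.19-fold) and Pdia6 (2.24-fold), WT replicate 2 exceeded WT replicate 1 by 2.41-fold for P4hb, 2.12-fold for Pdia5 and 1.95-fold for Pdia3. The ratio was 1.53 for Txndc11 and 0.91 for Txndc5. These relatives were picked after their values were seen.

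The sensors and switches of the unfolded protein response were not higher in WT replicate 2 as a group. Over 17 tested genes the median log2 CPM in WT replicate 2 was -0.10 from that in WT replicate 1, and the median log2 fold change of the libraries labelled dKO over WT was 0.14, with 10 higher, 7 lower and 0 called. Without WT replicate 2 the median was 0.31, with 12 higher and 5 lower. Of all genes tested, 52.2% were higher with both WT libraries and 54.3% without WT replicate 2, a background for the splits of every list here. Ern1 had 26.2, 42.2 and 9.37 CPM in dKO replicates 1, 2 and 3, against 19.3 and 12.3 CPM in WT replicates 1 and 2. Eif2ak3 ranged from 6.00 to 8.56 CPM over all libraries. Atf6 had 26.0, 11.7 and 27.6 CPM in the dKO libraries, against 11.1 and 42.0 CPM in WT, with its highest value in WT replicate 2.

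Within that list the smallest p-values belonged to the translation initiation factor Eif2s1 (-0.97), the phosphatase subunit Ppp1r15a (GADD34) that reverses its phosphorylation (0.97), the stress factor Ddit3 (CHOP, 0.77) and the CCAAT-binding subunit Nfyb (-0.44). Ppp1r15a had 335, 440.4 and 359 CPM in dKO replicates 1, 2 and 3, against 199 and 186 CPM in WT replicates 1 and 2. Ddit3 had 39.5, 43.9 and 39.4 CPM in the dKO libraries, against 24.1 and 24.1 CPM in WT. In CPM both WT libraries lay below every dKO library for both genes, a placing seen in 13.7% of all tested genes. In TPM this held for Ddit3 but not for Ppp1r15a, which had 70.8, 175 and 71.8 TPM in the dKO libraries, against 72.2 and 63.8 TPM in WT. Neither difference passed edgeR's test over all genes (adjusted p = 0.430 for Ppp1r15a and 0.486 for Ddit3; 0.9996 for each without WT replicate 2).

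The machinery before and after folding showed the excess of WT replicate 2 at a smaller size. Relative to WT replicate 1, the median log2 CPM in WT replicate 2 was 0.50 higher over 23 genes of the translocon, signal recognition particle and signal peptidase, 0.58 higher over 18 genes of N-glycosylation, 0.58 higher over 18 genes of COPII transport and retrieval and 0.42 higher over 21 genes of endoplasmic reticulum-associated degradation. The value for the 10 chaperone genes was 1.26 and for the other folding factors 0.41. In the libraries labelled dKO the same medians lay between -0.24 and 0.27 from WT replicate 1 for these 4 lists.

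In the comparison of the libraries labelled dKO with both WT libraries, edgeR called 0 genes of these 4 lists. The translocon list had 17 of 23 lower (median log2 fold change -0.20), with the signal peptidase subunits Sec11a (-0.57), Spcs3 (-0.68) and Spcs2 (-0.61) and the channel subunit Sec61b (-0.73) first by p. N-glycosylation had 15 of 18 lower (median -0.45), with the oligosaccharyltransferase subunits Ostc (-0.89), Stt3a (-0.57) and Ddost (-0.56) and the glucosidase Mogs (-1.10). COPII transport had 14 of 18 lower (median -0.23), with the coat subunits Sec23b (-0.88) and Sec13 (-0.61) and the cargo receptors Lman1 (-0.76) and Tmed10 (-0.63). Degradation had 14 of 21 lower (median -0.10), with Edem3 (1.36), which trims glycans of misfolded proteins, Faf2 (0.55), Derl2 (-0.39) and the ATPase Vcp (-0.30). Without WT replicate 2 the medians were 0.02, -0.24, -0.08 and 0.14 for these lists in the same order.

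Chaperones outside the compartment and the Atf4 response are the neighbouring arms of protein quality control. Of 17 tested cytosolic and mitochondrial chaperones 13 had a lower value in the libraries labelled dKO than in WT (median -0.35; 0 called), among them Hspd1 (-0.85), Hspe1 (-1.07) and Stip1 (-0.71), with Dnajb1 at 0.79. Without WT replicate 2 the median was -0.11, with 11 of 18 lower. WT replicate 2 exceeded WT replicate 1 by a median of 0.44 in log2 CPM there, against 1.26 in the 10 genes. The Atf4 response had 11 of 16 lower (median -0.32; 0 called), with the amino acid synthesis enzymes Asns (-1.60), Psat1 (-1.15) and Mthfd2 (-1.56) and Cars (-0.88). Without WT replicate 2 the list had 10 of 16 lower (median -0.16), and Asns had -1.45, Psat1 -0.77, Mthfd2 -0.83 and Cars -0.35.

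**Figure D5:**
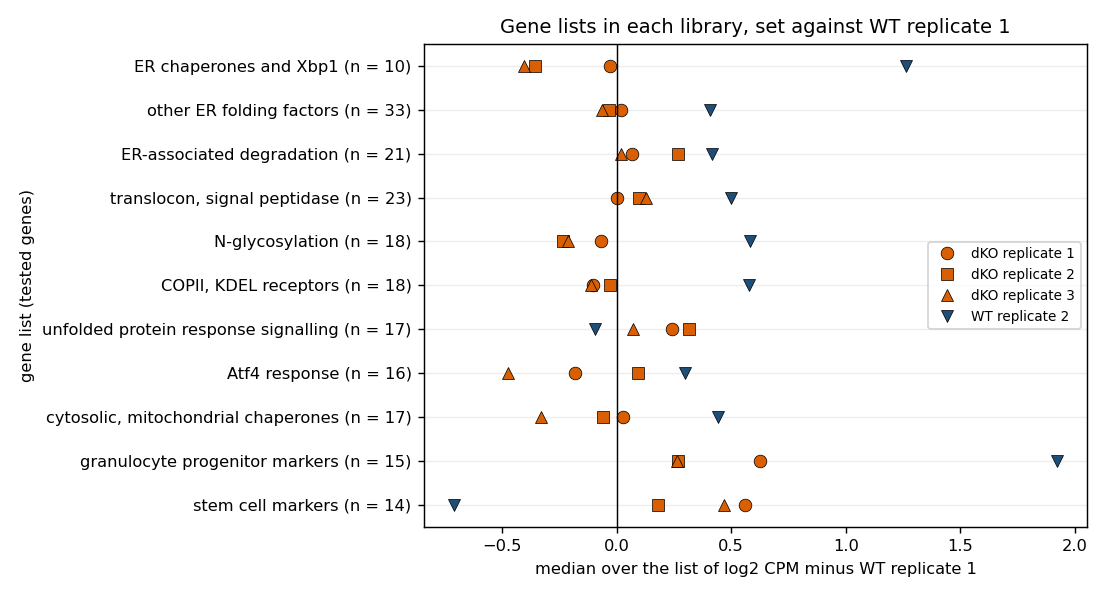
Median over each gene list of log2 CPM minus the value in WT replicate 1, for the 3 dKO libraries (orange) and WT replicate 2 (blue); n is the number of tested genes in the list. The 10 chaperone genes (top row) have 1.26 in WT replicate 2 and -0.40 to -0.03 in the dKO libraries, granulocyte progenitor markers 1.92 in WT replicate 2, and stem cell markers -0.71.

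Genes with either form of the ER stress response element that are not among the 10 were also followed. Of 43 such symbols 21 were tested and 9 averaged 50 CPM or more. The median ratio of WT replicate 2 to WT replicate 1 over these 9 was 1.32, beside 1.06 over all tested genes at that level. Of the 9, 1, Dnajc3, was 2-fold or more higher, against 3.01% of all tested genes at that level. These ratios contain the library on which the 10 genes were chosen and are a description only. Herpud1, a degradation factor, had 278, 341 and 279 CPM in dKO replicates 1, 2 and 3, against 265 and 376 CPM in WT replicates 1 and 2. The lectin chaperone Canx had 810.4, 835 and 933 CPM in the dKO libraries, against 1090.5 and 1447 CPM in WT. Both were named after their values were seen.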

How the data were processed

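Libraries were made from 6K sorted cells each with Smart-seq2, per the labels' protocols. The deposited files hold raw counts per gene and, separately, TPM computed by the authors. Per the submitters' processing notes TopHat2 2.1.1, HTSeq, RSEM 1.2.31, DESeq2, Trimmomatic and FastQC 0.11.5 were used with build mm9, in roles that the notes do not state. Of 33924 entries 30 name no gene (0.216% to 0.269% of counts) and were left out.

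The edgeR package 4.0.16 (R 4.3.3) tested the counts (TMM, filterByExpr, robust quasi-likelihood, Benjamini-Hochberg adjusted p under 0.05) for all 5 libraries, and again without WT replicate 2. On simulated data the test recovered few changes of 2-fold, and without WT replicate 2 more of its calls were false than the threshold allows. The 10 genes, the lists and the rules were chosen with earlier results of these data known. Named genes are the 10, Lrp5, Lrp6, 4 relatives, 3 sensors, 5 nearest profiles and up to 4 genes per list with the smallest p; others are said to be named later, except cell type markers. Of 214 list entries 213 matched, 3 through an Ensembl identifier. Sequences came from RefSeq on GRCm38.p6 and were used for letters only. Near-identical copies were sought with BLAST 2.17.0 in GENCODE M21 transcripts. Alternatives were DESeq2 1.42.0, RLE scaling, other filters, a fit by limma 3.58.1 to log2(TPM + 1) or log2(TPM + 0.1), a replicate block, and leaving out single libraries.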

Additional observations from a re-analysis of the deposited data

How the results depend on the processing

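Over all genes edgeR called 0 higher and 0 lower with 5 libraries. The numbers were 154 and 91 with DESeq2, 5 and 3 with no filter on low counts, 3 and 2 on log2 TPM with a pseudocount of 1, 2 and 0 with 0.1, and 0 to 2 higher and 0 to 3 lower with single libraries left out. Without WT replicate 2 edgeR called 0 higher and 1 lower; DESeq2 gave 87 and 8, the filter of 5 CPM and both TPM fits 0 lower, and leaving out 1 dKO library as well 0 to 3 higher and 1 to 4 lower.

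Of the 10 genes, DESeq2 with both WT libraries called Sdf2l1 (-1.60, adjusted p = 0.0329) and Manf (-1.28, adjusted p = 0.0395). By edgeR or limma with both WT libraries kept, the smallest adjusted p of any of the 10 was 0.334 to 0.559. These p-values include WT replicate 2, whose Hspa5 level led to the choice, so they describe the genes and do not test them. Set against WT replicate 1 alone, DESeq2 gave Sdf2l1 -0.40 and Manf -0.49. With single libraries left out Hsp90b1 ranged from -1.345 to 0.0087 and Calr from -1.476 to 0.15, both above 0 without WT replicate 2. With WT replicate 1 alone, Hspa5 ranged from -0.25 to 0.063, Hsp90b1 from -0.23 to 0.17 and Xbp1 from -0.068 to 0.043 when 1 dKO library was left out, and Xbp1 had 0.0173 under the filter of 5 CPM and 0.225 and 0.227 on log2 TPM with pseudocounts of 1 and 0.1. TPM moved the median of all genes to 0.14, from 0.04.

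List medians with single libraries left out ranged from -1.43 to -0.26 for the 10 genes, -0.45 to 0.03 for other folding factors, -0.33 to 0.14 for degradation, -0.49 to 0.0205 for the translocon, -0.69 to -0.24 for N-glycosylation, -0.64 to -0.084 for COPII, -0.55 to -0.14 for cytosolic and mitochondrial chaperones (over the same 17 genes), 0.13 to 0.31 for the unfolded protein response, -0.55 to -0.16 for the Atf4 response, -1.76 to 0.32 for granulocyte, -0.18 to 3.01 for plasma cell and 0.31 to 1.06 for stem cell markers. On log2 TPM with a pseudocount of 1 and 0.1 the medians were 0.368 and 0.372 for the unfolded protein response, -0.057 and -0.064 for folding factors, 0.158 and 0.164 for degradation and -0.121 and -0.122 for cytosolic chaperones, and plasma cell markers had 1.80 under the filter of 5 CPM. The causes were not tested.

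The replicate numbers are not stated to pair samples, and deviations of same-numbered libraries correlated at 0.033 and 0.046 across genes. With the replicate number as a block 1 gene was called higher and 0 lower, and 0 of the 10 genes were called. With 2 WT libraries, 1 of them the basis of the choice, the comparison without it has the spread of the dKO libraries only. Depth sets a floor: 3 counts equal 0.107 to 0.187 CPM, and a count of 0 allows a level up to that (counting error only).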
